A study of Canis lupus familiaris with 27 samples.

Results

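B cell and plasma cell genes were followed in 27 primary canine mammary carcinomas. The set comprised MS4A1, CD79A, CD79B, BANK1, JCHAIN, MZB1 and POU2AF1, and a gene was measured if a probe set of the Affymetrix Canine Genome 2.0 array carried exactly its symbol in the platform annotation. By this rule 6 of the 7 genes were measured with 9 of 43035 probe sets, with 3 for JCHAIN, 2 for MS4A1 and 1 for each of the others. MZB1, a helper of immunoglobulin assembly in the endoplasmic reticulum, matched 0 probe sets and was not analysed here. The probe set of highest mean over the 27 tumors stood for a gene, and values are log2 signals, so that a difference of 1 is a doubling.

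All tumors were invasive simple carcinomas of female dogs without a history of progestin treatment, macrodissected for high carcinoma cell content and hybridized to 1 array each. The metastatic group held 13 tumors with lymph node metastases at resection (dogs 1 to 13, aged 9 to 16 years), 7 of grade III and 6 of grade II, with diameters of 0.5 to 5 cm and a median of 3 cm. The non-metastatic group held 14 tumors without lymph node metastases (dogs 14 to 27, aged 9 to 15 years), 9 of grade III and 5 of grade II by the sample labels, with diameters of 2 to 15 cm and a median of 3.5 cm. The label of dog 25 gives grade II, whereas a table of the same tumors in the published article gives grade III. Large size and high grade were criteria for choosing the non-metastatic tumors, so size and lymph node status were linked by design. Each dog gave 1 tumor, and the dogs were of many breeds. Since the arrays measured bulk tissue, fewer B cells and less RNA of a gene per B cell cannot be told apart. The arrays of the 2 groups also differed in other ways. Their upper quartiles ranged from 7.88 to 8.00 in metastatic and from 7.53 to 7.93 in non-metastatic tumors, the GAPDH 3′ to 5′ difference, a sign of RNA quality, had medians of 1.93 (metastatic) and 1.28 (non-metastatic), and 11 of 13 metastatic against 0 of 14 non-metastatic sample names ended in the letter T. EPCAM, an adhesion molecule of epithelium, had 13.83 ± 0.62 in the 13 metastatic tumors, against 13.37 ± 0.71 in the 14 non-metastatic ones (mean ± SD). The mean of the 4 measured epithelial markers, EPCAM, KRT8, KRT18 and CDH1, varied more between tumors. It ranged from 8.87 to 12.96 in metastatic tumors and from 7.51 to 12.84 in non-metastatic ones.

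B cells recognise antigen with a membrane immunoglobulin that signals through the paired chains CD79A and CD79B. MS4A1, also known as CD20, is a surface protein of mature B cells that is lost when they become plasma cells, whereas JCHAIN, the joining chain of polymeric IgA and IgM, is made in quantity by plasma cells. In breast carcinomas of women both cell types can gather in the stroma, in part in follicle-like aggregates that form under the chemokine CXCL13. The genes studied here thus mark different stages of one lineage.

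The members fell into very different ranges of signal. JCHAIN was among the brightest probe sets of the array, with a mean of 13.24 above 99.1% of all probe sets tested. BANK1 with 6.01, MS4A1 with 4.76 and POU2AF1 with 3.29 were intermediate, above 62.6%, 55.8% and 45.7% of probe sets. CD79A and CD79B had means of 2.69 and 2.64, above only 33.6% and 32.1%. In most tumors these last 2 genes lay in a narrow band at the low end of the scale, where differences between tumors have no certain order. POU2AF1 likewise lay in a narrow low band, from 2.71 to 3.05, except in dogs 3, 5, 9, 10, 12 and 20. Its mean was lifted by those tumors. Signals of different probe sets are not levels per transcript, so the order of the genes describes the array and not the tissue.

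**Figure D1:**
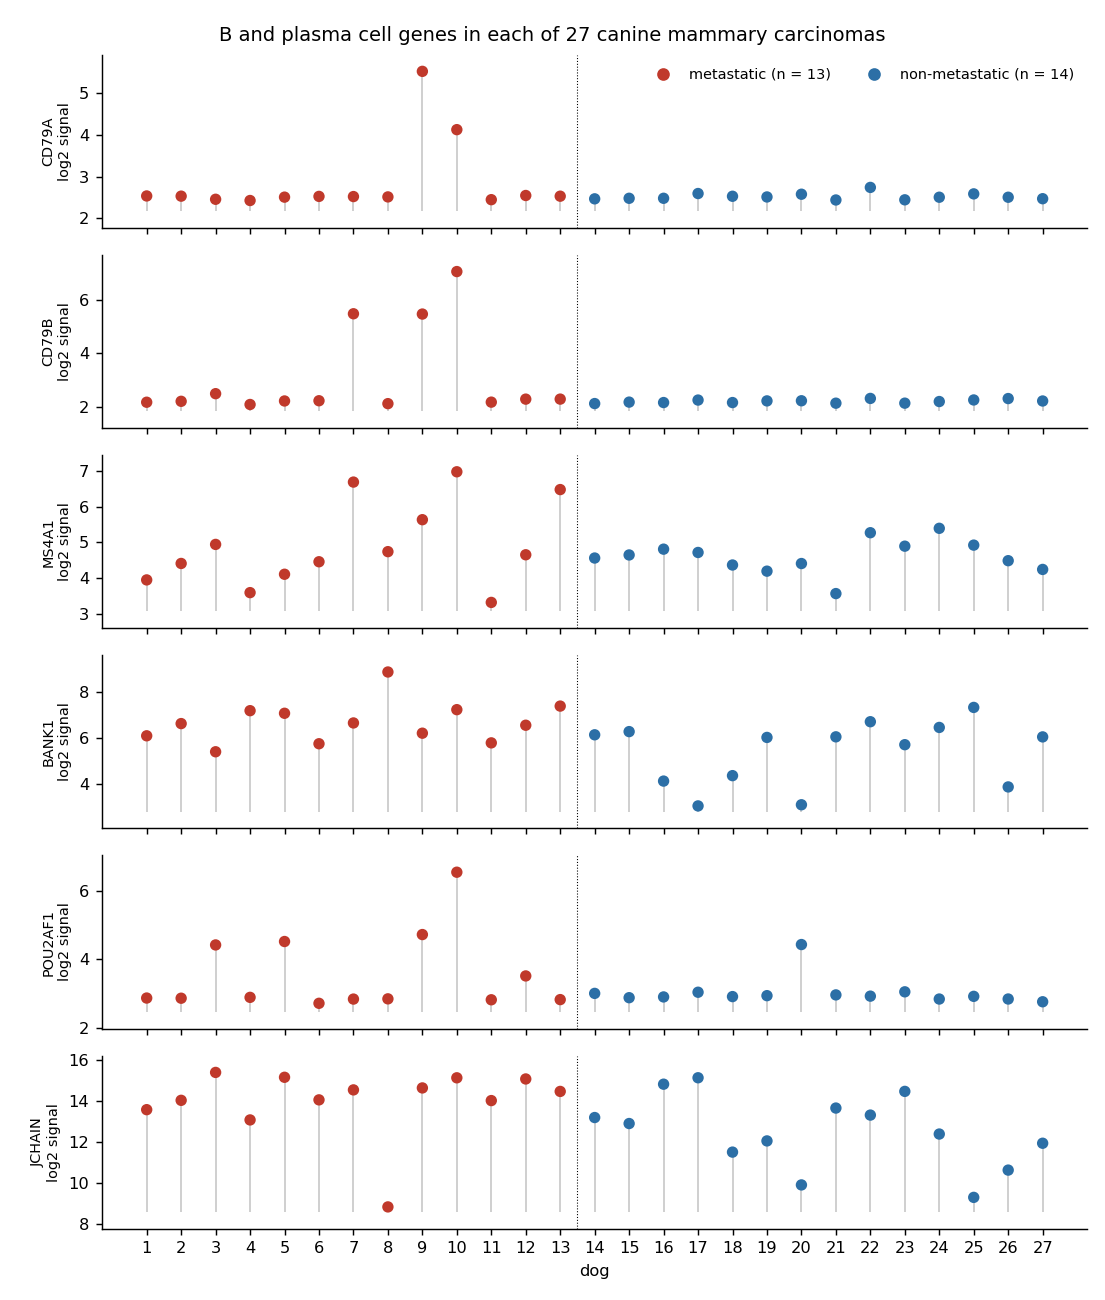
Log2 signal of the 6 measured genes in each of the 27 tumors, with metastatic tumors (dogs 1 to 13, red) left of non-metastatic tumors (dogs 14 to 27, blue) and a line down to the bottom of each panel. CD79A stands out in dogs 9 and 10 and CD79B in dogs 7, 9 and 10, while BANK1 and JCHAIN vary widely in both groups.

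The chains of the B cell receptor rose above the low band in 3 tumors, all metastatic. CD79A had a level of 5.52 in the tumor of dog 9 and of 4.12 in that of dog 10. It lay between 2.43 and 2.55 in the other 11 metastatic tumors and between 2.44 and 2.74 in the 14 non-metastatic tumors. The tumor of dog 9 was thus 3.01 above the median of the 24 tumors other than those of dogs 7, 9 and 10, a median within the low band. CD79B, its partner in the receptor, had 7.06 in dog 10, 5.48 in dog 7 and 5.47 in dog 9. The remaining 10 metastatic tumors had 2.09 to 2.49 and the 14 non-metastatic tumors 2.12 to 2.32. The tumor of dog 10 was 4.85 above the median of the other 24, which lies in the low band. In the tumor of dog 7, with high CD79B, the CD79A value was 2.52, within the low band, which does not show that CD79A was absent.

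MS4A1 was high in the same 3 tumors and in that of dog 13. Its main probe set had 6.97 in dog 10, 6.68 in dog 7, 6.47 in dog 13 and 5.63 in dog 9, the 4 highest of all 27 values. The remaining metastatic tumors had 3.33 (dog 11) to 4.95 (dog 3), and the non-metastatic tumors had 3.58 (dog 21) to 5.39 (dog 24) with a median of 4.61. The second probe set drew the same line more sharply. It had 6.57 in dog 7, 5.84 in dog 13, 5.76 in dog 10, 5.65 in dog 9 and 4.22 in dog 3, against 3.54 in dog 23 as the highest non-metastatic value. All the other tumors lay between 2.33 and 2.70. The tumor of dog 13 was the exception among those high in MS4A1, since CD79A (2.53) and CD79B (2.29) were in the low band there.

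POU2AF1, the coactivator with which octamer-binding factors drive immunoglobulin genes, stood out in a partly different set of tumors. It had 6.56 in dog 10, 4.73 in dog 9, 4.52 in dog 5, 4.42 in dog 3 and 3.51 in dog 12. The other 8 metastatic tumors had 2.71 to 2.89. Of the non-metastatic tumors only that of dog 20, with 4.44, was above 3.05. The tumors of dogs 7 and 13, high in MS4A1, had POU2AF1 levels of 2.84 and 2.82. These lie in the narrow low band of this gene, which does not show that POU2AF1 was absent.

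JCHAIN was abundant in nearly every tumor. It had a lowest value of 8.85 (dog 8), a median of 14.48 and a highest value of 15.41 (dog 3) in metastatic tumors, against 9.31 (dog 25), 12.66 and 15.15 (dog 17) in non-metastatic tumors. Among metastatic tumors 12 of 13 had at least 13.09, and the tumor of dog 8 was the lowest of all 27. In non-metastatic tumors the values were spread over the whole range. The second probe set was dimmer, with 5.27 to 9.37 in metastatic and 4.79 to 9.91 in non-metastatic tumors, and it placed the tumor of dog 18 highest although the main probe set had only 11.52 there. The third hardly varied and ranged from 2.98 to 3.75 in metastatic and from 3.01 to 3.80 in non-metastatic tumors. The main JCHAIN and CD79B probe sets and the second MS4A1 probe set have names ending in _s_at, which the manufacturer gives to probe sets that can match several similar transcripts.

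BANK1, a scaffold that links the B cell receptor to its kinases, was measured at a moderate level throughout. It had 5.40 (dog 3), a median of 6.64 and 8.90 (dog 8) in metastatic tumors, against 3.03 (dog 17), 6.04 and 7.34 (dog 25) in non-metastatic tumors. The groups overlapped, but 5 non-metastatic tumors, those of dogs 16, 17, 18, 20 and 26, had 3.03 to 4.35 and lay below every metastatic tumor. The highest BANK1 level, in dog 8, belonged to the tumor with the lowest JCHAIN level.

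The first question was whether these genes differed with lymph node status. BANK1 was the only member called, and it was higher in metastatic tumors by 1.32 on the log2 scale (6.69 ± 0.92, SD, n = 13, against 5.37 ± 1.40, SD, n = 14, in non-metastatic ones, limma over 15115 genes, SE 0.45, adjusted p = 0.0445). Of the metastatic tumors 10 of 13 exceeded the median of the non-metastatic ones. Of the 6 measured members 1 was called higher and 0 lower, while 10.4% of all genes were called higher and 6.83% lower, so the share of members called was near the background. The split of 1578 higher and 1033 lower genes moved to 962 and 952 with values quantile-normalized again and to 1808 and 629 with arrays centred on their medians. The BANK1 call was also fragile. It was lost with tumor size as a covariate (1.45, adjusted p = 0.138), with the array's upper quartile in the model (0.87, adjusted p = 0.422) and without any 1 of 15 tumors, those of dogs 2, 4, 5, 7, 8, 9, 10, 12, 13, 16, 17, 18, 20, 23 and 26 (adjusted p = 0.0503 to 0.0732). The adjusted p was 0.471 with the name ending as a block, where the difference of 2.13 rests on dogs 1 and 8 on the metastatic side.

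JCHAIN had the largest difference among the members, 1.48 (standard error 0.65), with 14.01 ± 1.69 in the 13 metastatic tumors, against 12.53 ± 1.77 in the 14 non-metastatic ones (mean ± SD), and 12 of 13 metastatic tumors lay above the non-metastatic median. It did not pass the test (adjusted p = 0.111 from limma). Without the tumor of dog 8, the lowest of all 27 in JCHAIN, the difference was 1.91 with an adjusted p of 0.0159 from limma. JCHAIN was not called in the other 26 fits that left out 1 tumor. Leaving out the lowest tumor of the higher group raises a difference by construction, so this fit does not show a difference. With the name ending as a block the sign turned, to −1.31, but that value rests on dogs 1 and 8 on the metastatic side. JCHAIN was 13.59 in dog 1 and 8.85 in dog 8, so the low tumor of dog 8 enters again. The second JCHAIN probe set differed by 1.07 (standard error 0.46, adjusted p = 0.0910 over 42860 probe sets) and the third by 0.046.

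The remaining members did not pass. CD79B had 3.10 ± 1.70 in the 13 metastatic tumors, against 2.21 ± 0.06 in the 14 non-metastatic ones (mean ± SD) (difference 0.89, 95% interval −0.022 to 1.81, adjusted p = 0.159 from limma). POU2AF1 had 3.57 ± 1.17 in metastatic and 3.03 ± 0.41 in non-metastatic tumors (difference 0.54, interval −0.13 to 1.21, adjusted p = 0.244). The difference of CD79A was 0.34 (interval −0.16 to 0.83, adjusted p = 0.330) and that of MS4A1 0.31 (interval −0.37 to 1.00, adjusted p = 0.523). The second MS4A1 probe set had 1.13 (standard error 0.44, adjusted p = 0.0660 over all probe sets). The differences of CD79A, CD79B and MS4A1 depended on a few high metastatic tumors. These were dogs 9 and 10 for CD79A, also dog 7 for CD79B, and also dogs 7 and 13 for MS4A1. Without dogs 7, 9 and 10, an alternative chosen after the values were seen, these differences were −0.021, 0.021 and −0.14, while those of BANK1 and JCHAIN were 1.31 and 1.25. Leaving out the highest tumors of 1 group lowers a difference by construction.

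**Figure D2:**
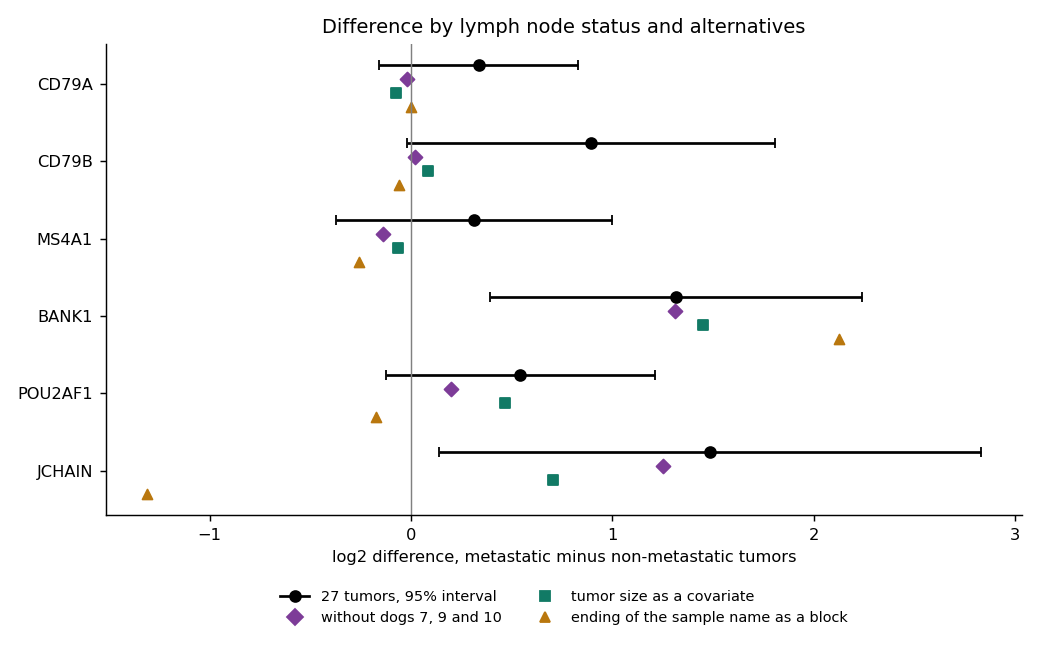
Log2 difference of the 6 genes, metastatic minus non-metastatic tumors, from the fit over 27 tumors with its 95% interval (black circles) and, without intervals, from 3 alternatives (purple without dogs 7, 9 and 10, green with tumor size as a covariate, orange with the name ending as a block). The intervals of BANK1 and JCHAIN lie above 0, and JCHAIN changes its side with the name ending as a block.

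Histologic grade, with lymph node status in the model, was not reflected in any member that passed the test. Of all 15115 genes 0% were called higher and 0% lower in grade III tumors (limma, smallest adjusted p = 0.370), although 822 had an unadjusted p under 0.05, 0 of the 6 members among them. BANK1 had 5.71 ± 1.41 (SD, n = 16) in grade III and 6.44 ± 1.19 (SD, n = 11) in grade II tumors (difference −0.60, standard error 0.45, adjusted p = 0.773). JCHAIN had 13.25 ± 1.70 in grade III and 13.22 ± 2.16 in grade II tumors (difference 0.19, standard error 0.68, adjusted p = 0.942), and the difference was −0.32 with dog 25 counted as grade III. The differences of MS4A1, POU2AF1, CD79A and CD79B were 0.17, 0.34, −0.097 and −0.13. The tumors standing out were of both grades, since dog 10 had a grade III tumor and dogs 7 and 9 had grade II tumors.

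Within grades, the JCHAIN difference between metastatic and non-metastatic tumors was 2.31 (standard error 0.85, adjusted p = 0.118 from limma) among grade III tumors. Among grade II tumors it was 0.34 (standard error 1.02, adjusted p = 0.916). The 7 metastatic grade III tumors had JCHAIN levels of 13.59 to 15.41, against 9.92 to 15.15 in the 9 non-metastatic grade III tumors. The difference between the 2 contrasts, 1.98, did not pass either (standard error 1.33, unadjusted p = 0.150, adjusted p = 1.00). BANK1 had 1.44 among grade III and 0.99 among grade II tumors in the same contrasts (adjusted p = 0.158 and 0.494).

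**Figure D3:**
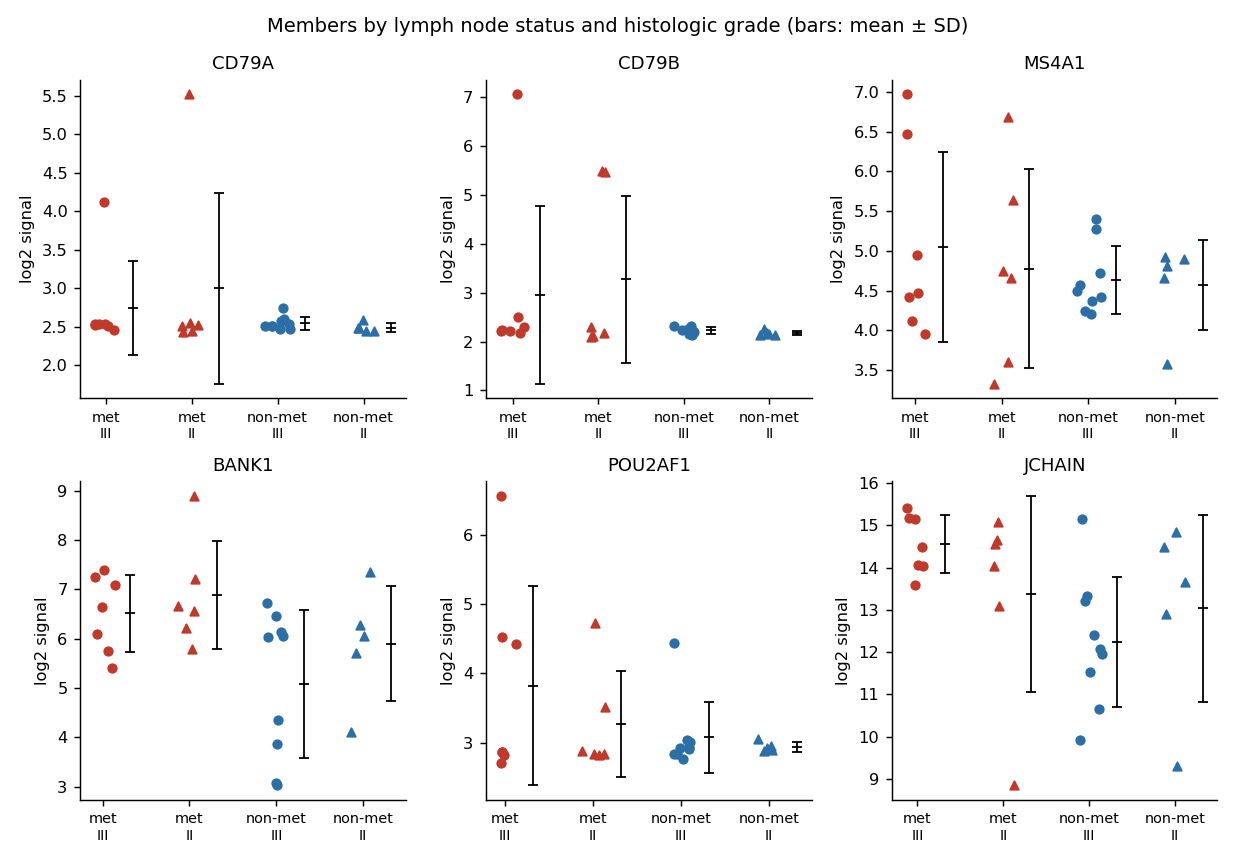
Log2 signal of each gene by lymph node status and histologic grade, with metastatic grade III and II tumors (red, n = 7 and 6) left of non-metastatic grade III and II tumors (blue, n = 9 and 5), and bars for mean ± SD. Wide bars in the metastatic columns of CD79A and CD79B come from 1 or 2 tumors each, and the metastatic grade III tumors form a tight group for JCHAIN between 13.59 and 15.41.

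Size was examined as the slope per doubling of the diameter, with lymph node status in the model. The slopes were −0.72 for CD79B (standard error 0.22, unadjusted p = 0.0031), −0.70 for JCHAIN, −0.36 for CD79A, −0.33 for MS4A1, −0.069 for POU2AF1 and 0.12 for BANK1. None passed the adjustment over all genes (limma, adjusted p = 0.659 to 0.913), and 0% of genes were called with a positive and 0% with a negative slope, against 1126 at an unadjusted p under 0.05, CD79A and CD79B among them. Without the lymph node term CD79B alone of the members was called (−0.74, adjusted p = 0.0434), where 1.34% of all genes were called with a negative and 0.966% with a positive slope.

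Tumors high in the receptor chains were small. The 4 tumors of 1 cm or less were all metastatic and belonged to dogs 6, 7, 9 and 10. CD79B was in the low band in dog 6 (2.23) and high in the other 3. With a slope for each group, CD79B had −1.28 (standard error 0.24, adjusted p = 0.0329 from limma) and CD79A −0.68 (standard error 0.13, adjusted p = 0.0329) within metastatic tumors, that is, lower levels in larger tumors. In that fit 28 genes, 0.185% of all, were called with a negative slope and 0% with a positive one. The slopes of MS4A1 (−0.70, adjusted p = 0.200), POU2AF1 (−0.32), JCHAIN (−0.25) and BANK1 (0.12) did not pass. The slope within metastatic tumors was not a planned comparison, unlike the common slope and the difference between the slopes of the groups. The calls rest on few tumors. In a fit of the 13 metastatic tumors alone they were lost (adjusted p = 0.424 for CD79B and 0.436 for CD79A), as they were without dog 1, 9 or 12, and without dogs 7, 9 and 10 the slopes were 0.018 and 0.0036. The count of 28 genes itself moved between 3, without dog 9, and 193, without dog 11. The slopes of the 2 groups were not shown to differ (adjusted p = 0.439 for both genes), and 0 non-metastatic tumors measured 1 cm or less.

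**Figure D4:**
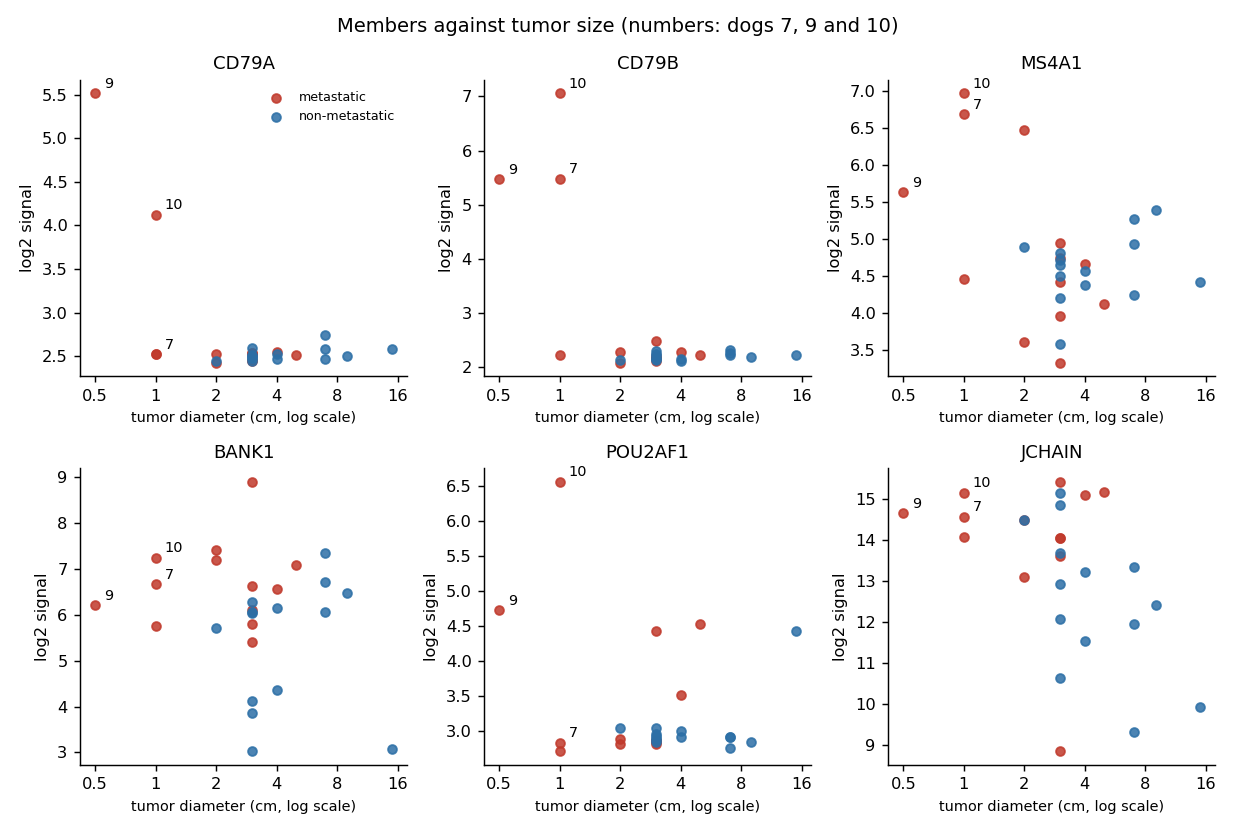
Log2 signal of each gene against tumor diameter in cm on a log scale, with metastatic tumors in red, non-metastatic tumors in blue and dogs 7, 9 and 10 numbered. High CD79A, CD79B and MS4A1 levels lie at 2 cm or less, and JCHAIN is high in small and spread out in large tumors.

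Counted over members, the tumor of dog 10 was among the 7 highest of 27 in all 6 measured genes and that of dog 9 in 5. The tumor of dog 5 was so in 3 genes, BANK1, JCHAIN and POU2AF1. No count is given for the groups, since the places in CD79A other than those of dogs 9 and 10, and in CD79B other than those of dogs 7, 9 and 10, lie within the low band. Place 7 in POU2AF1, held by dog 23, also lies in the narrow low band of that gene. Dog 22 was the only dog of its group to develop lung metastases. In its tumor of 7 cm CD79A had 2.74 and CD79B 2.32, both in or near the low band, where no order is certain. The CD79B value of dog 26 was 2.31. Among the 27 tumors that of dog 22 also had the highest mean of T and cytotoxic cell markers (8.54). Its mean of epithelial markers was the lowest (7.51). A link of any of these values to the later metastases was not tested. The mean standardized level over the 6 genes was 2.32 in dog 10, 1.70 in dog 9, 0.82 in dog 7 and 0.43 in dog 13, and the highest non-metastatic value was 0.095, in dog 22.

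The genes varied together only in part. Of 15 pairs of members, 4 passed by Pearson's r and 2 by Spearman's rho (permutation test with 100000 resamples, two-sided, Benjamini-Hochberg over the pairs), and 0 and 0 passed without dogs 7, 9 and 10, where 2 pairs had an unadjusted p under 0.05 by rho. The 2 pairs past by rho were MS4A1 with CD79B and CD79A with CD79B, and both also passed by r. The other pairs past by r were POU2AF1 with CD79A (r = 0.64) and with CD79B (r = 0.68, permutation test, adjusted p = 0.0336 and 0.0189). Their rho was 0.27 and 0.20 (permutation test, adjusted p = 0.332 and 0.491). Because a few tumors lie far from the rest in CD79A, CD79B and POU2AF1, their pairs were examined within the other 24 tumors. There MS4A1 and CD79B had r = 0.43 and rho = 0.42 (permutation p = 0.0409, adjusted p = 0.307), and CD79A and CD79B had r = 0.36 and rho = 0.53 (permutation p = 0.0082, adjusted p = 0.123). Among the other 15114 genes CD79B was the 5th closest to MS4A1 by Pearson's r over all 27 tumors. MS4A1 was the 56th and CD79A the 36th closest to CD79B.

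Within the 13 metastatic tumors 2 of 15 pairs passed by rho, and 1 of them was JCHAIN with CD79B (rho = 0.78, r = 0.30, permutation test, adjusted p = 0.0190). Over all 27 tumors that pair had rho = 0.37 and r = 0.31 (permutation p = 0.0551 and 0.0918, adjusted p = 0.165 and 0.197, r = 0.20 without the 2 farthest tumors), and rho = 0.21 without dogs 7, 9 and 10. The other was MS4A1 with CD79B (rho = 0.84, adjusted p = 0.0109 by permutation test). In non-metastatic tumors CD79A with CD79B was the 1 pair past the test (rho = 0.78, permutation test, adjusted p = 0.0232). All but 3 of the CD79B values and all but 2 of the CD79A values in these ranks lie in the low band. BANK1 and JCHAIN had r = −0.036 and rho = −0.034 over 27 tumors (permutation p = 0.858 and 0.869, adjusted p = 0.877 and 0.869), and r = −0.15 without the 2 tumors farthest from the median of BANK1. MS4A1 and BANK1 had r = 0.24 and rho = 0.30 (permutation p = 0.233 and 0.127, adjusted p = 0.369 and 0.300, r = 0.14 without the 2 farthest tumors). MS4A1 and JCHAIN had r = 0.23 and rho = 0.29 (permutation p = 0.246 and 0.140, adjusted p = 0.369 and 0.300, r = 0.083 without the 2 farthest tumors). In the order of closeness to MS4A1 they stood at places 2645 and 2799. The member nearest to BANK1 was MS4A1, at place 3104.

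**Figure D5:**
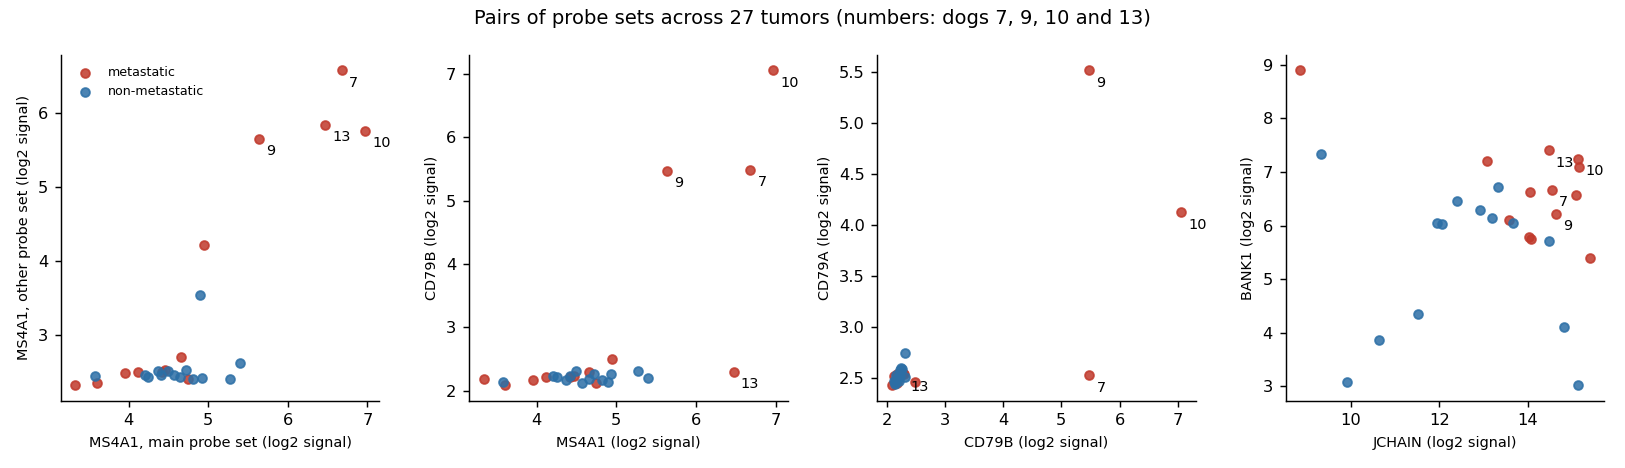
Log2 signals of pairs of probe sets in 27 tumors (red metastatic, blue non-metastatic, dogs 7, 9, 10 and 13 numbered), from left to right the 2 MS4A1 probe sets, MS4A1 and CD79B, CD79B and CD79A, and JCHAIN and BANK1. Dogs 7, 9 and 10 lie apart in the first 3 panels, dog 13 only in MS4A1, and no common course is seen for JCHAIN and BANK1.

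The 12 genes closest to the mean standardized level of the members had r between 0.82 and 0.88 over 27 tumors. They were SEPTIN1, PPARD, RUNX1, EFHD2, SYNE3, IRF5, DOCK2, FCMR, PTPDC1, LOC489534, SBNO2 and TRIB3. DOCK2, an activator of Rac in blood cells, had 4.82 in dog 10, 4.12 in dog 9 and 3.93 in dog 7, against a median of 3.53 in the other 24 tumors. IRF5, a transcription factor of B and myeloid cells, had 4.60 in dog 10 and 3.90 in dog 9 but 2.43 in dog 7, near the median of 2.41. Without dogs 7, 9 and 10 the r of 11 of the 12 genes lay between −0.064 and 0.42. FCMR, the Fc receptor for IgM, kept 0.72. It had 6.53 in dog 10, 5.95 in dog 9, 5.65 in dog 3, 5.62 in dog 7 and 4.90 in dog 13, the 5 highest values of all, and rose in metastatic tumors by 1.27 (4.56 ± 1.06 in metastatic and 3.29 ± 0.68 in non-metastatic tumors, adjusted p = 0.0109 from limma).

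The other genes of the B cell pathway were read from lists. In B cell receptor signalling 3 of 16 measured genes rose and 1 fell in metastatic tumors (18.8% and 6.25%, against 10.4% and 6.83% of all genes), with a median difference of 0.38 against −0.0019 over all genes. PRKCB, a protein kinase C downstream of the receptor, rose by 1.65 (adjusted p = 0.0253 from limma), the kinase BTK by 1.02 and the adaptor BCL10 by 0.63. MALT1, the protease that acts with BCL10, was lower in metastatic tumors, with 4.51 ± 0.87 (SD, n = 13) against 5.97 ± 1.05 (SD, n = 14) in non-metastatic tumors (adjusted p = 0.0084). Of 24 B cell surface receptors 2 rose and 0 fell, which is 8.33% higher against 10.4% of all genes, namely FCMR and CD40, the receptor for T cell help, with 6.01 ± 1.25 in metastatic and 4.76 ± 0.63 in non-metastatic tumors (difference 1.25, adjusted p = 0.0210, all 13 metastatic tumors over the median of the others). CD40 was highest in dog 7 with 9.21. BTK, PRKCB and CD40 are also expressed by myeloid cells.

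Of 14 B lineage transcription factors 1 rose and 1 fell, 7.14% each way against 10.4% and 6.83% of all genes. SPI1, a factor shared with myeloid cells, rose by 0.95. BCL6, the factor of germinal centre B cells that epithelium also expresses, was lower by a difference of −1.05 (10.66 ± 0.56 in metastatic tumors, against 11.71 ± 0.51 in non-metastatic ones, adjusted p = 0.0015 from limma). PAX5, the identity factor of B cells, had 2.82 ± 0.05 in metastatic and 2.98 ± 0.27 in non-metastatic tumors (adjusted p = 0.145), a low signal that did not rise in dogs 7 (2.82), 9 (2.74) or 10 (2.83). CD22, a surface receptor of B cells, had 3.95 in dog 10 and 3.90 in dog 9, against a median of 3.21 and a highest value of 4.00 in the other 24 tumors. The B lineage markers as a whole, 6 of 7 measured, had mean levels of 3.27 to 5.36 in the metastatic group, against 3.13 to 3.95 in the other group.

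In the list of plasma cell and secretory genes 2 of 21 rose and 0 fell, a share of 9.52% higher that is near the 10.4% of all genes. These were SEC11C, a subunit of the signal peptidase, by 0.71 (adjusted p = 0.0013 from limma), and SRPRB of the signal recognition particle receptor, by 0.65, both of them genes that any secreting cell uses. DERL3, which acts in the disposal of misfolded proteins and is abundant in plasma cells, had 4.34 ± 2.05 in metastatic and 2.81 ± 0.60 in non-metastatic tumors (difference 1.53, adjusted p = 0.0586). It was highest in dogs 10 (8.09), 3 (7.41), 5 (6.48), 12 (5.13) and 9 (5.04). These are the 5 metastatic tumors that stood out in POU2AF1, and 4 of them were among the 5 highest tumors in each of POU2AF1 and JCHAIN, an overlap looked for after the values were seen. XBP1, a driver of secretion that mammary epithelium also needs, had 12.95 ± 0.54 in metastatic and 12.68 ± 0.66 in non-metastatic tumors (adjusted p = 0.419). Of 26 immunoglobulin-related symbols, which include IGJ and FCRN as older names of JCHAIN and FCGRT, PIGR and FCGRT were matched. By lymph node status neither passed the test or had an unadjusted p under 0.05. For grade 0 of the 2 were called by limma, but 1 had an unadjusted p under 0.05.

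Genes of B cell survival and lymphoid organization rose in 2 and fell in 1 of 18 cases, shares of 11.1% and 5.56% that are near those of all genes (10.4% and 6.83%). CCL21, a chemokine that guides lymphocytes into lymphoid tissue, rose by 2.97 (8.27 ± 1.37 in metastatic and 5.30 ± 2.51 in non-metastatic tumors, adjusted p = 0.0101 from limma), and TNFSF13B, the B cell survival factor BAFF, by 1.64. LTB, lymphotoxin beta, was lower by a difference of −1.42 (adjusted p = 0.00039). CXCL13, the chemokine of B cell follicles, had 5.86 ± 3.03 in metastatic and 3.55 ± 1.45 in non-metastatic tumors (difference 2.31, adjusted p = 0.0700). Its 5 highest values were 10.74 in dog 10, 9.13 in dog 7, 8.67 in dog 3, 8.13 in dog 13 and 8.13 in dog 9. These 5 tumors were also the 5 highest in the second MS4A1 probe set, and 4 of them were among the 5 highest in the main one, again a comparison made after the values were seen. CCL21 shared 1 of its 5 highest tumors with each MS4A1 probe set, with JCHAIN and with POU2AF1. The CXCL13 median of the 24 tumors other than those of dogs 7, 9 and 10 was 2.84. Of the 137 listed genes measured 0 were called for grade or size by limma, with 6 and 8 at an unadjusted p under 0.05.

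Markers of other cells were set beside these results. By lymph node status 10.4% of all genes were called higher and 6.83% lower. Of 11 measured T and cytotoxic cell markers 0 were called by lymph node status (limma, 1 at an unadjusted p under 0.05), with mean levels between 3.71 and 7.87 in metastatic tumors, against 3.40 to 8.54 in non-metastatic ones. The highest means were 8.54 in dog 22 and 7.87 in dog 3, and those of dogs 7 (7.20), 10 (5.99) and 9 (5.48) followed at places 3, 4 and 5 of 27, against a median of 4.62 in the other 24 tumors. Of 8 myeloid markers 0 were called (2 at an unadjusted p under 0.05), with means between 6.82 and 8.75 (metastatic) and between 5.82 and 8.95 (non-metastatic). Smooth muscle and myoepithelial markers fell in 2 of 5 cases (40% against 6.83% of all genes), with means between 7.29 and 10.09 (metastatic) and between 7.69 and 11.82 (non-metastatic). Of 3 endothelial markers 1, PECAM1, rose by 1.00 (33.3% against 10.4% of all genes). The part of these cells in the differences of the B and plasma cell genes was not tested. The tumors of dogs 7, 9 and 10 had array upper quartiles of 7.90 to 7.99 and GAPDH differences of 1.68 to 1.93, within the range of the other metastatic tumors.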

How the data were processed

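RNA of 27 tumors was hybridized to Affymetrix Canine Genome 2.0 arrays, and the authors processed them in Partek Genomic Suite 6.4 by its GCRMA workflow (RMA background, quantile normalization, median polish). The deposited log2 values were used as they stand. No genome build was needed, and no sequences were used here. The 175 control probe sets among 43035 were dropped, and 29254 of 42860 carried 1 symbol, 439 several and 13167 none. For each of 15115 genes the probe set with the highest mean was used. Dogs were matched to the study's numbering by breed, age, size and node, and grade was taken from the labels.

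Comparisons used limma 3.58.1 in R 4.3.3 (lmFit, eBayes) with Benjamini-Hochberg adjustment over all genes and a threshold of 0.05, without covariates for lymph node status and with lymph node status as a covariate for grade and size. Correlations used 100000 permutations in Python 3.11.15 with scipy 1.17.1. On simulated data of the same design the fit was checked. Genes named were the members, the 12 genes closest to their mean level, up to 4 called genes of smallest adjusted p per list, and single examples. The members and lists were chosen with earlier results of these data known. The number of arrays limits the precision. Alternatives covered scaling, array weights, dim probe sets, probe set choice, covariates and single tumors.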

Additional observations from a re-analysis of the deposited data

Results flagged for a closer look

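Each of the 9 probe sets was examined within tumors of the same lymph node status and grade, 5 to 9 tumors at a time, which gave 36 sets of values. The sets share tumors and some share a gene, so they are not independent. Of the 36 sets, 10 held a value far from the rest of its set by Dixon's criterion, which chance meets in about 1 of 20 independent sets. Several of these are the tumors described above. CD79A was apart in dog 9 (5.52) and dog 10 (4.12), CD79B in dog 10 (7.06) and POU2AF1 in dog 9 (4.73) among metastatic tumors of their grade. POU2AF1 was also apart in dog 20 (4.44), whose tumor of 15 cm was the largest. JCHAIN was apart in dog 8, with 8.85 as the lowest value of its set. MS4A1 was apart in dog 21 with 3.58, a low value of the main probe set, and in dog 23 with 3.54, a high value of the second. The CD79A values of dog 22 (2.74) and dog 25 (2.59) were apart by a small margin within the low band.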

How the results depend on the processing

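Under other settings than leaving out single tumors there were 237 results, of which 182 stayed the same. They comprise values of the members, counts of members called and counts of pairs past the test. For a value, the same means an unchanged direction and side of the threshold. For a count, it means a count equal or close to the main one. For lymph node status the 1 member called higher became 0 with values quantile-normalized again, with array weights, with grade, size, age and size, or the upper quartile as covariates, with the name ending as a block and without dogs 7, 9 and 10. Leaving out single tumors gave 0 to 1 members called, with BANK1 lost in 15 of 27 fits, and without dogs 1 and 8 JCHAIN was called (1.99) and BANK1 was not (1.17). Dogs 1 and 8 had the only metastatic sample names not ending in T, so without them lymph node status and name ending coincide. That fit also leaves out dog 8, the tumor of lowest JCHAIN, which raises the JCHAIN difference by construction. With size as a covariate MS4A1 had −0.064 and CD79A −0.073, with age and size MS4A1 −0.063, CD79A −0.17 and CD79B −0.045, and with the name ending as a block MS4A1 −0.26, CD79B −0.061, JCHAIN −1.31 and POU2AF1 −0.17, all opposite to the main direction. The values with the name ending as a block rest on dogs 1 and 8 on the metastatic side. Without dogs 7, 9 and 10 MS4A1 had −0.14 and CD79A −0.021. For grade the sign turned for MS4A1 with the probe set of largest variance (−0.070), for JCHAIN with dog 25 counted as grade III (−0.32), for CD79A and CD79B with size as a covariate (0.085 and 0.23) and without dogs 7, 9 and 10 (0.047 and 0.072). Leaving out single tumors gave grade differences of −0.20 to 0.15 for CD79A, −0.46 to 0.086 for CD79B and −0.29 to 0.47 for JCHAIN. For size, 1 member was called lower without the lymph node term, where BANK1 had −0.26. Size in cm gave −0.023 for BANK1 and 0.061 for POU2AF1. Without dogs 7, 9 and 10 the slopes were 0.034 for MS4A1, 0.033 for CD79A, 0.024 for CD79B and 0.38 for POU2AF1, and leaving out single tumors gave −0.24 to 0.10 for POU2AF1. Within metastatic tumors the 2 members called became 0 in those 13 tumors alone and without dogs 7, 9 and 10, where CD79A had 0.0036, CD79B 0.018, JCHAIN 0.30 and POU2AF1 0.64. Leaving out single tumors gave 0 to 2 members called and −0.46 to 0.031 for JCHAIN. The 2 pairs past the test by rho became 4 with deviations from the group means and 0 without dogs 7, 9 and 10. Of all genes, the 1578 called higher and 1033 lower by lymph node status became 345 and 132 with size, 282 and 102 with age and size, 440 and 408 with the upper quartile, 10 and 0 with the name ending as a block and 1009 and 449 without dogs 7, 9 and 10. The causes were not tested. Leaving out dogs 7, 9 and 10 or dogs 1 and 8, fitting the 13 metastatic tumors alone and leaving out single tumors for the slopes within them were chosen after seeing the data. The slopes within metastatic tumors were themselves not planned. No paired analysis was possible because replicate numbers only follow the order of the samples. Scaling moved the median of all genes by 0.011 and 0.047. Values in the low band have no certain order.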
